A study of Mus musculus with 16 samples.

Results

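This section describes 5 mouse genes, Clca3a1, Rpe65, Lpo, Col20a1 and Trh, that were at a low level in cultured oligodendrocyte precursor cells (OPCs) and far higher after thyroid hormone. They were chosen by the size of their T3 rise from a low baseline in these same libraries, so their T3 changes are given as a description without a test. They are 5 of the 19764 genes that had enough counts to be tested, and all 5 were among those tested, out of 55335 genes in the files. RNA was sequenced from OPCs grown from mouse neural stem cells of a mixed C57BL6J/129svEmx background and taken after 4 days in monolayer culture. The 16 libraries formed 4 groups of 4. These were RXRg-/- OPCs (RXRgKO) given triiodothyronine (T3) for 24 h, RXRgKO OPCs left untreated, RXRg+/+ OPCs (WT) given T3 for 24 h and WT OPCs left untreated. Each library was made from poly-A RNA of a large pool of OPCs. The sources used here state neither the dose of T3 nor the part of Rxrg that was disrupted, and they do not say whether replicates were separate cultures or separate animals. The p-values therefore measure the spread between these libraries, which may be technical.

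T3 is the active form of thyroid hormone. It binds nuclear thyroid hormone receptors, which sit on DNA mostly as partners of retinoid X receptors such as RXRg, and the hormone turns some genes on and others off. In OPCs, T3 is a classic signal to stop dividing and to differentiate. The products of the 5 genes are best known from other tissues or from the extracellular matrix. Clca3a1 belongs to the CLCA family of secreted proteins, first described as regulators of calcium-activated chloride currents. Rpe65 encodes the isomerase that regenerates the visual chromophore in the retinal pigment epithelium. Lpo encodes lactoperoxidase, a heme peroxidase secreted into milk, saliva and airway fluid. Col20a1 encodes a chain of collagen XX, one of the fibril-associated (FACIT) collagens. Trh encodes the precursor of thyrotropin-releasing hormone, the hypothalamic peptide at the head of the thyroid axis. In hypothalamic neurons, Trh is the textbook case of a gene that T3 lowers.

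All 5 are protein-coding genes in the GENCODE M21 annotation of GRCm38. Clca3a1 (ENSMUSG00000056025) lies on the minus strand at chr3:144729677-144760977. Rpe65 (ENSMUSG00000028174) lies on the plus strand of the same chromosome at chr3:159599175-159625321. Lpo (ENSMUSG00000009356) is on the minus strand at chr11:87806428-87828289, Col20a1 (ENSMUSG00000016356) on the plus strand at chr2:180986535-181018363 and Trh (ENSMUSG00000005892) on the minus strand at chr6:92242061-92244650. The genes are therefore on 4 chromosomes. Each has 1 entry in the RefSeq table of promoters for GRCm38.p6, and the 250 bases before the start of transcription were searched on both strands for AGGTCA, the half-site to which thyroid hormone receptors and other nuclear receptors bind. A copy of the half-site stood upstream of Col20a1 and of Trh, in the minus-strand spelling TGACCT, and none upstream of Clca3a1, Rpe65 or Lpo. The window of Lpo, chr11:87826115-87826364, lies inside the GENCODE span of Lpo given above, because the RefSeq start differs from the GENCODE start. The bases before the GENCODE start of Lpo were not searched. Of all 32851 promoters in the table, 14.0% held at least 1 copy in the same window. A direct repeat of the half-site with 4 bases between the copies, the spacing that thyroid hormone receptors prefer, stood in none of the 5 windows and in 5 of the 32851. A match is a run of letters and does not show that a receptor binds there. The windows of the genes with a half-site are shown here with that of Clca3a1, the gene with the largest rise, for comparison; they are the 250 bases up to the base before the RefSeq start, 5′ to 3′ on the strand of the gene, with the half-site in capitals. They cover chr6:92244651-92244900 (minus strand), chr2:180986285-180986534 (plus strand) and chr3:144760978-144761227 (minus strand).
Trh: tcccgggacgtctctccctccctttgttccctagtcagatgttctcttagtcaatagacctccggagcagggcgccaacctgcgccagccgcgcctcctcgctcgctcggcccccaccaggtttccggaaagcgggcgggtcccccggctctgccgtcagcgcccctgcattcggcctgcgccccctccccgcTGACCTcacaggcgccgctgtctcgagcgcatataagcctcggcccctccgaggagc
Col20a1: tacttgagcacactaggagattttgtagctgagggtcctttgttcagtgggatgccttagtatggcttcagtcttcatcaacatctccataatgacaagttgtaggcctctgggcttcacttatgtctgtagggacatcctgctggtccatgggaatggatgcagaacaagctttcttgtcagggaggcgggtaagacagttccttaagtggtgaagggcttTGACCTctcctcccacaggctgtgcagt
Clca3a1: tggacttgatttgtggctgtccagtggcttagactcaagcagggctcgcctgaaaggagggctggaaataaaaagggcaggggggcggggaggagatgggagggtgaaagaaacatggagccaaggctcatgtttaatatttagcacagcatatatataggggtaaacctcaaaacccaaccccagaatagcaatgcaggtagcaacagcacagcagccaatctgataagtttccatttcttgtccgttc
The first letter of the half-site lies 57 bases before the start in Trh and 28 bases before it in Col20a1. The G and C content of the windows was 68.8% in Trh, 49.2% in Col20a1 and 48.8% in Clca3a1, against 45.2% in Rpe65 and 42.0% in Lpo.

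Libraries held 18262279 to 42588442 counts in genes. Counts were scaled to CPM (counts normalised to library size) with TMM factors, which also correct for library composition. OPC markers were present throughout, with all 8 listed markers, among them Pdgfra, Olig2 and Sox10, at a mean of 1 CPM or more in each of the 4 groups. Rxrg, the gene named in the genotype, did not follow its labels. It averaged 4.92 ± 0.493 CPM in RXRgKO-labelled T3 libraries, 4.25 ± 0.546 CPM in RXRgKO-labelled untreated libraries, 0.703 ± 0.271 CPM in WT-labelled T3 libraries and 1.51 ± 0.282 CPM in WT-labelled untreated libraries (SD, n = 4 each). Counts per gene cannot show which part of Rxrg the reads came from, so the groups are called by their labels and a direction between genotypes is a direction between labels. Some libraries also stood apart from others of their group. Replicate 1 of both WT-labelled groups had more of the astrocyte gene Gfap, at 11207 CPM with T3 and 4728 CPM untreated, against 2455 to 2834 CPM and 819.3 to 1001 CPM in replicates 2 to 4. RXRgKO-labelled T3 replicates 1 and 2 and untreated replicates 1 and 3 lacked Xist, the RNA of the inactive X chromosome, at 1.39 to 3.75 CPM, while the other 12 libraries had 275.9 CPM or more. T3 and untreated libraries of the same set also differed in these sex-linked genes. WT-labelled replicates 2 to 4 had 275.9 to 365.2 CPM of Xist with T3 and 1198 to 1382 CPM untreated, and 68.1 to 78.3 CPM of the Y-linked Ddx3y with T3 and 13.9 to 15.8 CPM untreated. The RXRgKO-labelled libraries with Xist averaged 21.4 CPM of Ddx3y with T3 and 52.0 CPM untreated. The part of this difference in the T3 ratios within sets was not tested. Results for the 5 genes are therefore also given within these sets of libraries.

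Clca3a1 had the largest rise. It stood at 55.3, 50.8, 103.0 and 103.2 CPM in RXRgKO-labelled T3 libraries 1 to 4, against 0.685, 0.616, 0.681 and 0.448 CPM in the RXRgKO-labelled untreated ones. It stood at 173.2, 90.5, 100.1 and 103.3 CPM in WT-labelled T3 libraries 1 to 4, against 1.06, 0.676, 0.421 and 0.479 CPM in the WT-labelled untreated ones. In raw counts, 965 to 5480 reads per T3 library stood against 10 to 26 per untreated library. No T3 library came near an untreated one, and among T3 libraries WT-labelled replicate 1 was the highest and RXRgKO-labelled replicates 1 and 2, which lacked Xist, the lowest. The fitted log2 change with T3 was 7.01 (SE 0.365) under the RXRgKO label and 7.46 (SE 0.371) under the WT label, or 128.9-fold and 175.4-fold. Per kilobase of exon, the mean level of Clca3a1 rose above that of 86.6% of tested genes in RXRgKO-labelled T3 libraries, against 7.91% in RXRgKO-labelled untreated ones, and above 91.0% in WT-labelled T3 libraries, against 12.9% in WT-labelled untreated ones. Part of the Clca3a1 transcript cannot be told from its relatives by short reads. Of its 3896 stretches of 50 bases, 1045 (26.8%) also occur in other genes, Clca3a2 and Clca3b among them, so how the reads were assigned makes the level uncertain to that extent. Clca3a2 and Clca3b had group means of 0.0395 to 0.213 CPM. Gm34866, an antisense gene that overlaps Clca3a1, had 15 or fewer counts summed over any group.

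Col20a1 was not near-silent before T3. It had 155 to 507 reads in each untreated library, and among the 5 genes it had both the highest baseline and the highest level with T3. The level was 65.6, 74.3, 191.1 and 203.3 CPM in RXRgKO-labelled T3 libraries 1 to 4, against 6.95, 7.63, 6.60 and 7.25 CPM in the RXRgKO-labelled untreated ones. It was 572.3, 426.1, 394.3 and 379.3 CPM in WT-labelled T3 libraries 1 to 4, against 20.6, 9.29, 9.64 and 8.92 CPM in the WT-labelled untreated ones. T3 and untreated libraries were far apart under both labels, and with T3 every WT-labelled library was above every RXRgKO-labelled one. The log2 change with T3 was 4.23 (SE 0.388) under the RXRgKO label and 5.19 (SE 0.404) under the WT label. Per kilobase of exon, Col20a1 reached a mean of 26.0 CPM in RXRgKO-labelled T3 libraries and 86.2 CPM in WT-labelled T3 libraries, the second above 97.5% of tested genes. The annotated gene BX649560.1 overlaps Col20a1 on the same strand, and reads could be split between them. BX649560.1 averaged 15.5 CPM in RXRgKO-labelled T3, 9.03 CPM in RXRgKO-labelled untreated, 22.0 CPM in WT-labelled T3 and 11.8 CPM in WT-labelled untreated libraries. Only 0.563% of the 50-base stretches of Col20a1 transcripts occur in another gene.

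Lpo was barely detected before T3. It stood at 5.69, 7.26, 12.1 and 13.4 CPM in RXRgKO-labelled T3 libraries 1 to 4, against 0.685, 0.539, 0.639 and 0.299 CPM in the RXRgKO-labelled untreated ones. It stood at 22.2, 10.7, 7.72 and 8.0 CPM in WT-labelled T3 libraries 1 to 4, against 0.650, 0.169, 0.0842 and 0.305 CPM in the WT-labelled untreated ones. The T3 libraries lay apart from the untreated ones under both labels, and WT-labelled replicate 1 was again the highest of the T3 libraries. The log2 change with T3 was 4.17 (SE 0.467) under the RXRgKO label and 5.30 (SE 0.513) under the WT label. Counts were 138 to 702 per T3 library and 2 to 20 per untreated library.

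Rpe65 rose to a lower level than the genes above. It stood at 5.22, 4.42, 3.64 and 2.81 CPM in RXRgKO-labelled T3 libraries 1 to 4, against 0.548, 0.231, 0.681 and 0.239 CPM in the RXRgKO-labelled untreated ones. It stood at 10.7, 6.53, 6.87 and 8.78 CPM in WT-labelled T3 libraries 1 to 4, against 0.0813, 0.253, 0.295 and 0.174 CPM in the WT-labelled untreated ones. All 4 RXRgKO-labelled T3 libraries lay below all 4 WT-labelled ones, and both lay above every untreated library. The log2 change with T3 was 3.25 (SE 0.334) under the RXRgKO label and 5.33 (SE 0.377) under the WT label. Counts were 84 to 340 per T3 library and 2 to 16 per untreated library.

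Trh had the lowest mean CPM of the 5 with T3 under either label, and the most uneven T3 libraries under the WT label. It stood at 1.62, 1.21, 1.27 and 1.82 CPM in RXRgKO-labelled T3 libraries 1 to 4, against 0.617, 0.154, 0.426 and 0.119 CPM in the RXRgKO-labelled untreated ones. It stood at 1.36, 7.64, 9.94 and 9.36 CPM in WT-labelled T3 libraries 1 to 4, against 0, 0.422, 0.379 and 0.609 CPM in the WT-labelled untreated ones. WT-labelled replicates 2 to 4 were high with T3, while WT-labelled replicate 1 lay at the level of the RXRgKO-labelled libraries. The WT-labelled untreated replicate 1 had 0 reads of Trh, which allows up to 0.122 CPM (3 counts). The log2 change with T3 was 2.19 (SE 0.661) under the RXRgKO label and 4.32 (SE 0.650) under the WT label. Counts were 23 to 233 per T3 library and 0 to 18 per untreated library, so the untreated level of Trh rests on few reads. Counting limits of this kind cover counting error only, since the reads carry no molecular identifiers and several may come from 1 molecule.

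**Figure D1:**
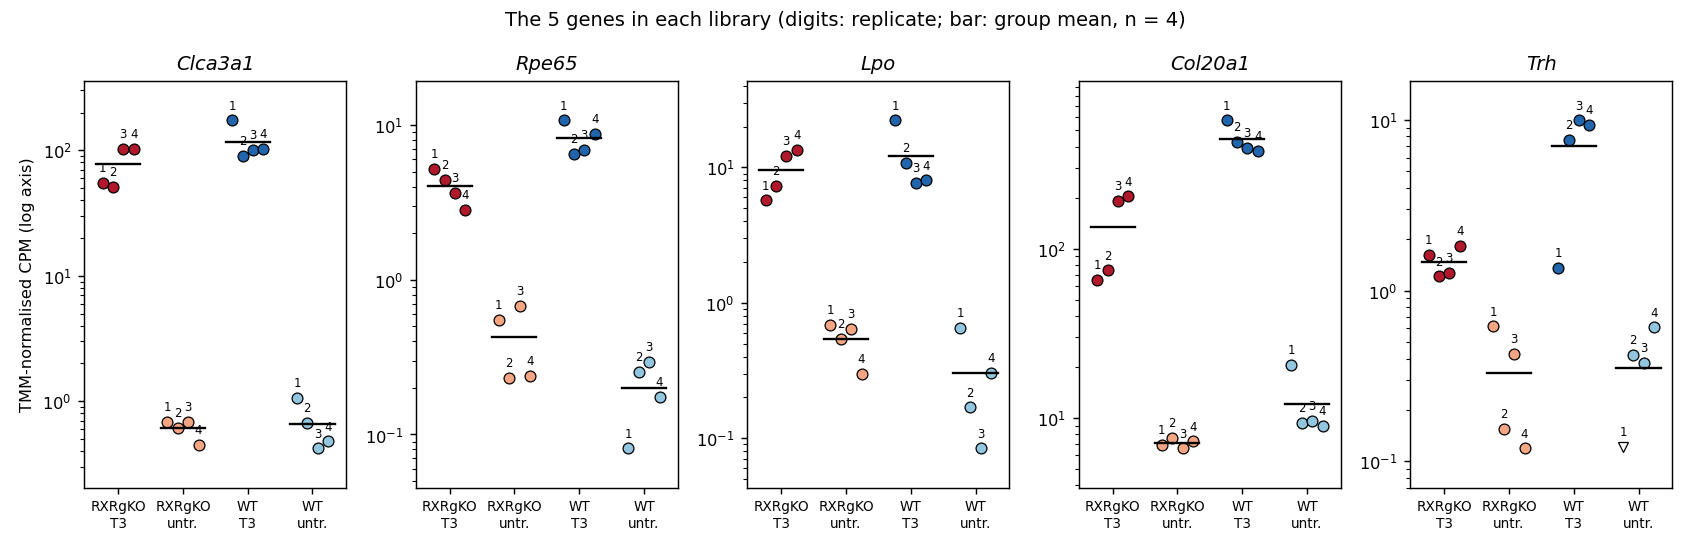
TMM-normalised CPM (log axis, scaled per gene) of the 5 genes in each of the 16 libraries. Points are libraries with their replicate number, bars are group means (n = 4), and the open triangle marks the library with 0 Trh reads at its limit of 0.122 CPM. T3 libraries lie above untreated ones in every panel, and for Rpe65 and Col20a1 the RXRgKO-labelled T3 libraries lie below all WT-labelled T3 libraries.

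In each of the 5 genes every T3 library lay above every untreated library, under both labels. Over all tested genes, 7.87% did so under the RXRgKO label and 7.69% under the WT label, and nothing is read from the count for the 5, which were chosen for it. Genes past an edgeR adjusted p of 0.05 and higher with T3 made up 2.01% of tested genes under the RXRgKO label, where 4 of the 5 were among them and Trh was not, and 4.96% under the WT label, where all 5 were. DESeq2 called all 5 higher under both labels, among 804 of all tested genes under the RXRgKO label and 1517 under the WT label. Nothing is read from these counts either. When the replicate number was entered as a block in the WT-labelled libraries alone, the genes that passed in either direction came to 5280, against 1541 in these 8 libraries without the block. With all 16 libraries in the fit they were 1537 with the block and 1668 without it. These are bulk libraries, in which more cells of a type and more RNA per cell cannot be told apart.

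By size of the log2 change, the order of the 5 under the WT label was Clca3a1, Rpe65, Lpo, Col20a1 and Trh. Rpe65, Lpo and Col20a1, at 5.33, 5.30 and 5.19, were closer together than 1 standard error. Under the RXRgKO label the order was Clca3a1, Col20a1, Lpo, Rpe65 and Trh, and Col20a1 and Lpo, at 4.23 and 4.17, were again within 1 standard error. By level per kilobase with T3, the order was Col20a1, Clca3a1, Lpo, Rpe65 and Trh under the RXRgKO label, with 26.0, 20, 3.07, 2.08 and 1.07 CPM per kilobase. Under the WT label it was Col20a1, Clca3a1, Trh, Rpe65 and Lpo, with 86.2, 30.0, 5.11, 4.26 and 3.88 CPM per kilobase. The genes thus fall into a high pair, Col20a1 and Clca3a1, and a low trio whose group means in WT-labelled T3 libraries were above 54.4% to 59.4% of tested genes. Trh, in the middle of that order under the WT label, was last under the RXRgKO label.

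Within the sets of libraries, the ratio of mean CPM with T3 to mean CPM untreated stayed large for Clca3a1. It was 77.7 in the RXRgKO-labelled libraries lacking Xist, 193.8 in the RXRgKO-labelled ones with Xist, 163.9 in WT-labelled replicate 1 and 186.5 in WT-labelled replicates 2 to 4. For Col20a1, the structural collagen gene, the 4 ratios in the same order were 10.3, 26.5, 27.8 and 43.1. For Lpo, the peroxidase gene, they were 9.78, 30.5, 34.1 and 47.4. The ratios of both genes were largest in WT-labelled replicates 2 to 4. Rpe65 had ratios of 7.85, 13.7, 132.2 and 30.7, of which the third rests on 2 untreated reads. Trh had 2.72 in the RXRgKO-labelled libraries lacking Xist, 11.3 in those with Xist, at least 11.1 in WT-labelled replicate 1, set against the limit for 0 reads, and 19.1 in WT-labelled replicates 2 to 4. The ratio was above 1 in all 4 sets for all 5 genes, and in each gene the smallest was that of the RXRgKO-labelled libraries lacking Xist. Other measures moved with these sets. Summed astrocyte markers, 6 of 6 present in every group, ranged over 3289 to 6267 CPM in RXRgKO-labelled T3, 1792 to 3912 CPM in RXRgKO-labelled untreated, 3890 to 14030 CPM in WT-labelled T3 and 2138 to 7092 CPM in WT-labelled untreated libraries, with none of the 6 at 0. Their part in the levels of the 5 genes was not tested.

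Among the T3 libraries the genes did not rank alike. WT-labelled replicate 1 was the highest of its group for Clca3a1, Rpe65, Lpo and Col20a1, at 1.48, 1.31, 1.83 and 1.29 times the group mean. For Trh it was the lowest, at 0.192 times the group mean. Under the RXRgKO label, replicates 3 and 4, which have Xist, were the highest for Clca3a1, Lpo and Col20a1 and the lowest for Rpe65. For Col20a1, replicates 3 and 4 were at 1.43 and 1.52 times the group mean and replicates 1 and 2 at 0.491 and 0.556 times. For Rpe65, replicates 3 and 4 were at 0.905 and 0.698 times the mean and replicates 1 and 2 at 1.3 and 1.1 times. Across the 8 T3 libraries, Pearson's r of log2 CPM was 0.876 between Clca3a1 and Col20a1 and 0.842 between Clca3a1 and Lpo, but 0.154 between Rpe65 and Lpo and -0.281 between Lpo and Trh. These are descriptions over 8 libraries that fall into the sets named above. Over all 16 libraries, which span the T3 change, r ranged over 0.723 to 0.975 for the 10 pairs.

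**Figure D2:**
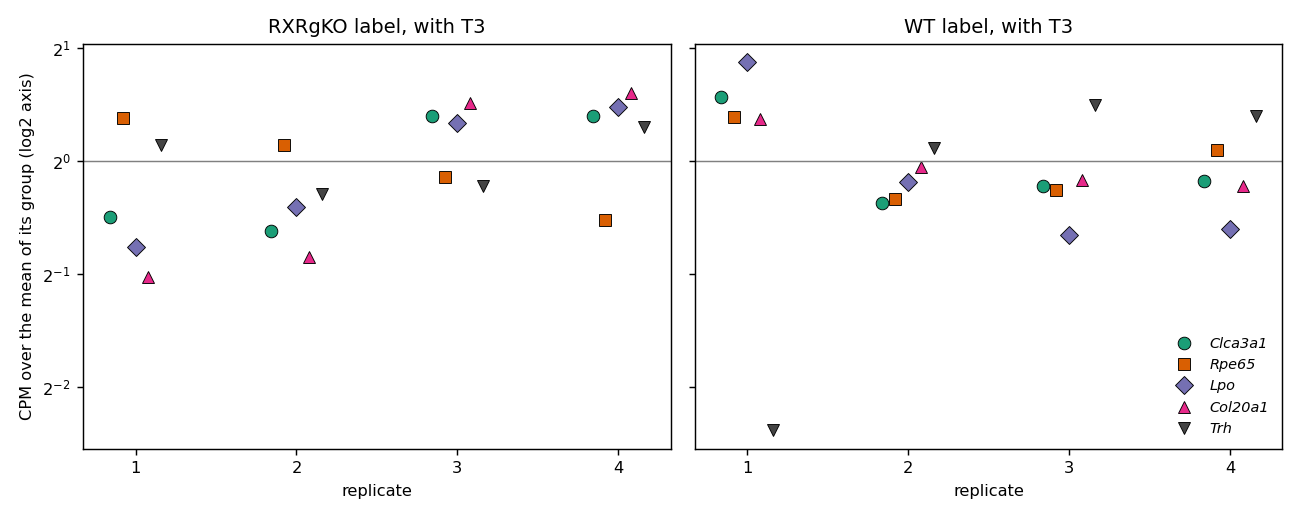
CPM of each gene over the mean of its group (log2 axis) in the 4 RXRgKO-labelled and the 4 WT-labelled T3 libraries, by replicate number. Trh in WT-labelled replicate 1 is the lowest point at 0.192, while the other 4 genes are above 1 in that library.

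The 2 genotype labels were compared next, as labels only, since Rxrg did not follow them. With T3, 3 of the 5 genes were lower under the RXRgKO label, Rpe65, Col20a1 and Trh, and none was higher. Among all tested genes 6.8% were lower and 8.1% higher in this comparison. Col20a1 averaged 133.6 ± 73.7 CPM in RXRgKO-labelled T3 libraries and 443.0 ± 88.4 CPM in WT-labelled T3 libraries (SD, n = 4 each), a log2 difference of -1.73 (SE 0.345, edgeR quasi-likelihood adjusted p = 0.00234). Rpe65 averaged 4.02 ± 1.04 CPM in RXRgKO-labelled T3 libraries and 8.23 ± 1.95 CPM in WT-labelled T3 libraries (SD, n = 4 each), a log2 difference of -1.04 (SE 0.270, edgeR adjusted p = 0.014). Trh averaged 1.48 ± 0.290 CPM in RXRgKO-labelled T3 libraries and 7.07 ± 3.93 CPM in WT-labelled T3 libraries (SD, n = 4 each), a log2 difference of -2.23 (SE 0.542, edgeR adjusted p = 0.00919). In Rpe65 and Col20a1 the libraries of the 2 labels did not overlap, which 8.91% of tested genes showed in this direction, while in Trh WT-labelled replicate 1 lay among the RXRgKO-labelled libraries. The WT-labelled T3 libraries also entered the choice of the 5 genes, so these tests are not free of that choice.

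Clca3a1 and Lpo did not pass the test between labels with T3. Clca3a1 averaged 78.1 ± 29.0 CPM in RXRgKO-labelled T3 libraries and 116.8 ± 38.0 CPM in WT-labelled T3 libraries (SD, n = 4 each), a log2 difference of -0.58 (SE 0.261, edgeR adjusted p = 0.165). Lpo averaged 9.62 ± 3.73 CPM in RXRgKO-labelled T3 libraries and 12.2 ± 6.82 CPM in WT-labelled T3 libraries (SD, n = 4 each), a log2 difference of -0.33 (SE 0.371, edgeR adjusted p = 0.645). Both genes overlapped between labels. The value for Lpo turned to 0.14 (adjusted p = 0.842) without WT-labelled T3 replicate 1. Without the RXRgKO-labelled libraries that have Xist, Clca3a1 was also lower under the RXRgKO label, at -1.12 (adjusted p = 0.00681).

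The lower levels of Rpe65 and Col20a1 were also called with either RXRgKO-labelled set or WT-labelled replicate 1 left out. WT-labelled replicates 2 to 4 were never left out together. They were more like each other than like replicate 1, so the p-values may count like libraries as separate ones. Without the RXRgKO-labelled libraries lacking Xist, the log2 difference with T3 was -1.40 (adjusted p = 0.00289) for Rpe65 and -1.21 (adjusted p = 0.0131) for Col20a1. Without those that have Xist it was -0.76 (adjusted p = 0.0447) for Rpe65 and -2.65 (adjusted p = 8.36e-05) for Col20a1. Without replicate 1 of both WT-labelled groups it was -0.89 (adjusted p = 0.0208) for Rpe65 and -1.58 (adjusted p = 0.00221) for Col20a1. For Trh, the value without the RXRgKO-labelled libraries lacking Xist was -2.24 and missed the threshold (adjusted p = 0.0518), and without replicate 1 of both WT-labelled groups it was -2.58 (adjusted p = 1.96e-05). The second fit leaves out the WT-labelled T3 library that lay among the RXRgKO-labelled ones. It is therefore no check of the Trh difference, which rests on WT-labelled replicates 2 to 4. The summed level of myelinating oligodendrocyte markers differed between labels too. With T3, 6 of 6 markers were present and none was at 0. Their sum was 2964 to 4707 CPM in RXRgKO-labelled T3 libraries and 17902 to 27671 CPM in WT-labelled T3 libraries. In untreated libraries it was 1654 to 2247 CPM under the RXRgKO label and 12413 to 16845 CPM under the WT label. The sum does not stand for each marker. Opalin, 1 of the 6, averaged 37.6 CPM in RXRgKO-labelled T3 and 22.3 CPM in WT-labelled T3 libraries (edgeR adjusted p = 0.107). The part of the summed level in the lower levels of Rpe65, Col20a1 and Trh was not tested.

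Without T3, none of the 5 genes passed edgeR's test or DESeq2's between labels, and 2 of them, Rpe65 and Col20a1, had an unadjusted edgeR p under 0.05. This is a comparison in which 11.3% of tested genes passed in either direction. Col20a1 averaged 7.11 ± 0.437 CPM in RXRgKO-labelled untreated libraries and 12.1 ± 5.67 CPM in WT-labelled untreated libraries (SD, n = 4 each), a log2 difference of -0.77 (SE 0.353, edgeR adjusted p = 0.211). Every RXRgKO-labelled library was below every WT-labelled one, by 7.63 CPM against 8.92 CPM at the nearest, as 9.36% of tested genes were. WT-labelled untreated replicate 1, at 20.6 CPM, lay far above the other 3 of its group, and without it the log2 difference was -0.37 (adjusted p = 0.615). Rpe65 averaged 0.425 ± 0.226 CPM in RXRgKO-labelled untreated libraries and 0.201 ± 0.0942 CPM in WT-labelled untreated libraries (SD, n = 4 each), a log2 difference of 1.04 (SE 0.459, edgeR adjusted p = 0.191). For Rpe65 the value was 1.60 (adjusted p = 0.0184) without the RXRgKO-labelled libraries that have Xist. Clca3a1, Lpo and Trh had log2 differences of -0.14, 0.80 and -0.11 with adjusted p of 0.9, 0.517 and 0.961 by edgeR.

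The T3 response difference, which sets the log2 T3 change of the RXRgKO-labelled libraries against that of the WT-labelled ones (RXRgKO minus WT), was below 0 for all 5 genes and passed edgeR's test for none, with an unadjusted p under 0.05 for 2, Rpe65 and Trh. In this comparison 0.0658% of tested genes, or 13, passed. The difference was -2.08 (SE 0.531, edgeR adjusted p = 0.237) for Rpe65 and -2.13 (SE 0.963, edgeR adjusted p = 0.921) for Trh. It was -1.13 (SE 0.713) for Lpo, -0.96 (SE 0.487) for Col20a1 and -0.44 (SE 0.491) for Clca3a1, each with an edgeR adjusted p of 1. By DESeq2, 1 of the 5 passed, Rpe65, with a difference of -2.12 (adjusted p = 0.0279), and 105 of all tested genes passed. The median over the 5 was -1.13, and the median over all tested genes was 0.03. T3 rises of the WT-labelled libraries entered the choice of the 5 genes and are subtracted here. These values and tests are therefore not free of that choice, and nothing is read from their shared direction or their median. A difference in level with T3 was thus called for Rpe65, Col20a1 and Trh, while edgeR called a difference in T3 response for none of them. In simulated data the test of the response difference found 16.4% of 2-fold and 74.2% of 4-fold changes, so a missed call does not show equal responses.

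**Figure D3:**
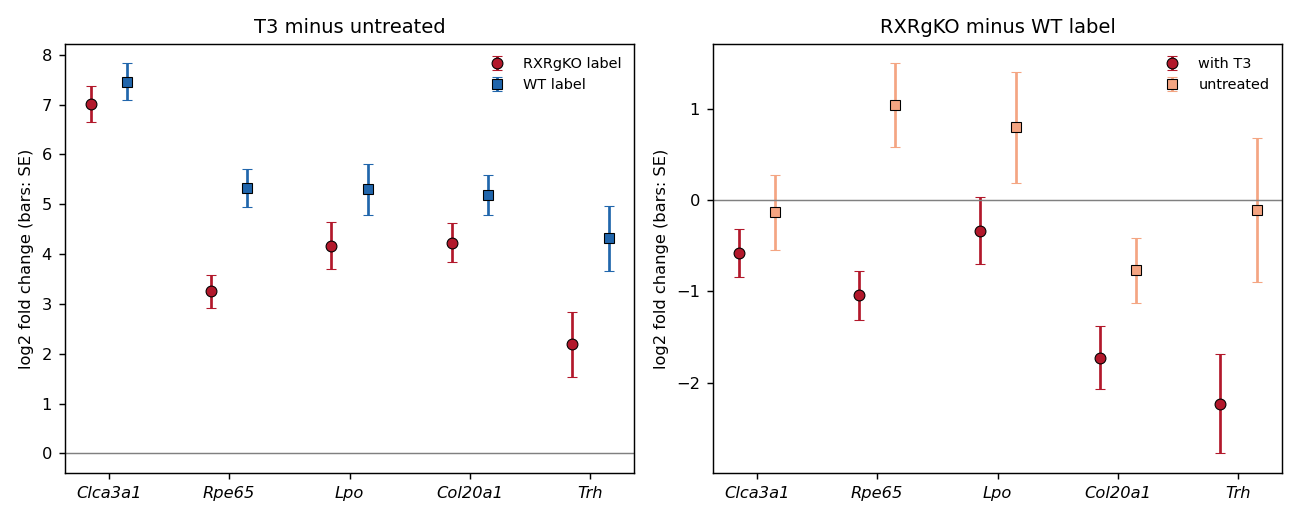
Left, log2 change with T3 (T3 minus untreated) of the 5 genes under each label. Right, log2 difference between labels (RXRgKO minus WT) with T3 and untreated; bars are standard errors of the edgeR fit. The T3 changes run from 2.19 for Trh under the RXRgKO label to 7.46 for Clca3a1 under the WT label, and with T3 the lowest difference between labels is that of Trh at -2.23.

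Genes with a similar low start were counted as well. A mean under 1 CPM untreated, at least 2 CPM with T3 and a pass of the test in the upward direction were found together in 20 tested genes (0.101%) under the RXRgKO label and 55 (0.278%) under the WT label, 11 of them under both. Clca3a1, Lpo and Rpe65 were among the 11, and since the 5 genes were chosen by the same values, their places here are a description from which nothing is read. By log2 change they ranked 1, 3 and 7 of the 20 under the RXRgKO label. Under the WT label, Clca3a1, Rpe65, Lpo and Trh ranked 1, 3, 4 and 7 of the 55. Col20a1 was in neither group because of its baseline. Trh was not among the 20 under the RXRgKO label, where its mean with T3 was 1.48 CPM and its change passed DESeq2's test but not edgeR's. The other genes at the top of the 2 rankings were not all alike between labels. Bcl3, a co-regulator of NF-kB, ranked 5 in both, at 5.81 ± 1.55 CPM in RXRgKO-labelled T3 and 0.422 ± 0.325 CPM in RXRgKO-labelled untreated libraries, and 8.04 ± 0.658 CPM in WT-labelled T3 and 0.253 ± 0.0974 CPM in WT-labelled untreated libraries (SD, n = 4 each). Prph, which encodes the neuronal filament protein peripherin, ranked 2 under the WT label, at 6.86 ± 2.06 CPM in WT-labelled T3 and 0.148 ± 0.115 CPM in WT-labelled untreated libraries. Prph averaged 1.03 ± 0.465 CPM in RXRgKO-labelled untreated libraries, just over the limit, and 31.1 ± 8.27 CPM in RXRgKO-labelled T3 libraries. Opalin, a myelin membrane gene, ranked 2 under the RXRgKO label, with 37.6 ± 10.5 CPM in T3 and 0.830 ± 0.0832 CPM in untreated libraries. Dio3, the deiodinase that inactivates T3, ranked 4 there, with 7.0 ± 3.65 CPM in T3 and 0.430 ± 0.103 CPM in untreated libraries.

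**Figure D4:**
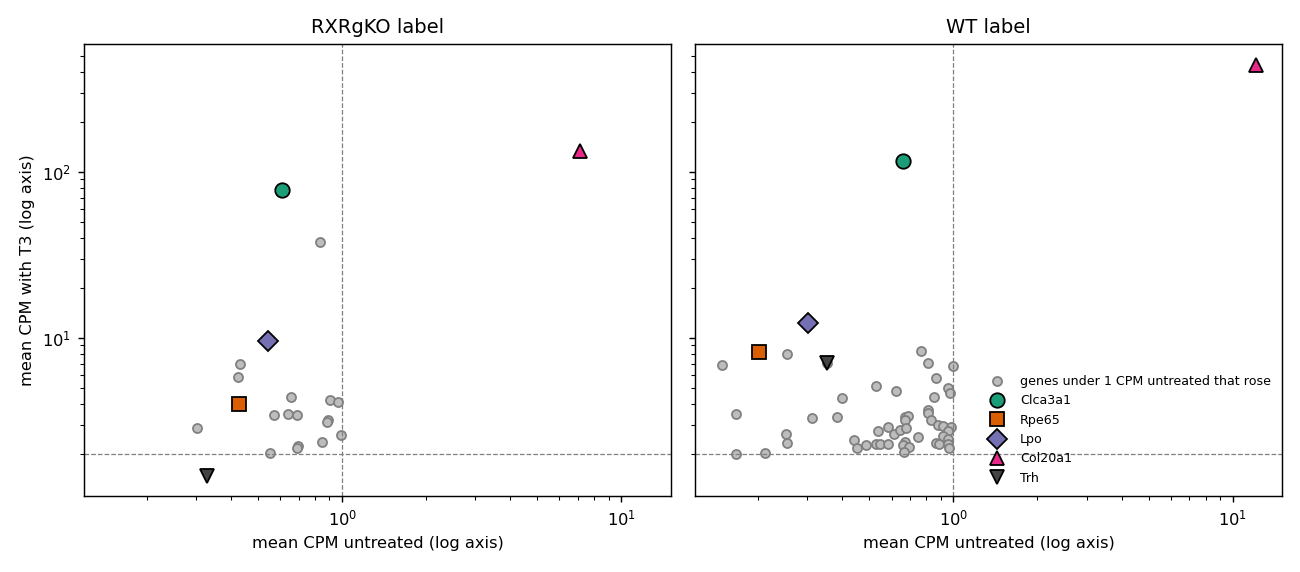
Mean CPM with T3 against mean CPM untreated (both log axes) for the 5 genes and for the other genes under 1 CPM untreated that rose with T3 to at least 2 CPM, 20 such genes under the RXRgKO label and 55 under the WT label with members included. Dashed lines mark 1 CPM untreated and 2 CPM with T3. Clca3a1 lies above all others left of the line, Col20a1 lies to the right of it under both labels, and Trh lies below 2 CPM under the RXRgKO label.

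The relatives and pathway partners of the 5 genes, on lists chosen with earlier results of these data known, were mostly not called higher with T3. For Clca3a1, the other 6 CLCA family genes had group means of 0.0395 to 0.726 CPM. Only Clca1 had enough counts for a test, and it averaged 0.341 ± 0.303 CPM in RXRgKO-labelled T3, 0.726 ± 0.550 CPM in RXRgKO-labelled untreated, 0.196 ± 0.157 CPM in WT-labelled T3 and 0.549 ± 0.167 CPM in WT-labelled untreated libraries. Its log2 changes with T3 were -1.21 (edgeR adjusted p = 0.457) under the RXRgKO label and -1.53 (edgeR adjusted p = 0.305) under the WT label. Of 10 tested chloride channel genes, none passed edgeR's test for T3, with medians of 0.12 under the RXRgKO label and 0.07 under the WT label. At an unadjusted p under 0.05 there were 4 under the RXRgKO label and 1 under the WT label, and DESeq2 called 2 (Clcn3 and Ttyh2) and 1 (Clcn3) higher. Over all 19764 tested genes, DESeq2 called 804 higher with T3 under the RXRgKO label and 1517 under the WT label. The share of all tested genes at an unadjusted p under 0.05 was not computed. Nothing is therefore read from unadjusted counts, for the lists, the neighbours or the 5 genes. Ano1, a calcium-activated chloride channel, was the only one that passed edgeR's test between labels, higher under the RXRgKO label by 1.5 with T3 (edgeR adjusted p = 0.00123) and 0.96 untreated (adjusted p = 0.0251).

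For Rpe65, 14 other genes of the visual retinoid cycle and of retinol handling were tested. None rose with T3 by edgeR or DESeq2 under either label, though 2 were higher at an unadjusted p under 0.05 under the RXRgKO label. Under the RXRgKO label 1 fell, Rgr, which encodes a retinal opsin of the pigment epithelium, by a log2 change of -2.22 (SE 0.572, edgeR adjusted p = 0.0475), at means of 0.115 CPM in T3 and 0.550 CPM in untreated libraries. DESeq2 gave no adjusted p for Rgr there. Under the WT label 2 fell, and the median of the 14 was -0.14 against -0.03 over all tested genes. Of all 19764 tested genes, edgeR called 157 lower with T3 under the RXRgKO label and 688 under the WT label. Dhrs3, a retinal reductase, averaged 2.35 ± 0.356 CPM in WT-labelled T3 and 6.57 ± 0.585 CPM in WT-labelled untreated libraries, a log2 change of -1.49 (edgeR adjusted p = 9.44e-05). Rlbp1, a carrier of retinal, averaged 44.2 ± 7.60 CPM in WT-labelled T3 and 75.6 ± 15.1 CPM in WT-labelled untreated libraries, a log2 change of -0.78 (edgeR adjusted p = 0.0383). Lrat, which makes the retinyl ester on which the Rpe65 enzyme acts, averaged 1.15 ± 0.400 CPM in RXRgKO-labelled T3, 0.533 ± 0.149 CPM in RXRgKO-labelled untreated, 0.524 ± 0.235 CPM in WT-labelled T3 and 0.408 ± 0.130 CPM in WT-labelled untreated libraries. With T3, 4 of the 14 were higher under the RXRgKO label and none lower, against 8.1% of all tested genes higher and 6.8% lower. These were Lrat (1.08, adjusted p = 0.0492), Rdh10 (0.64, adjusted p = 0.00246), Dhrs3 (0.81, adjusted p = 0.00667) and Stra6 (1.81, adjusted p = 0.00221), by edgeR. The pigment epithelium markers Best1 and Tyr were under 1 CPM in every library, though none of the 9 listed markers was at 0 in all 16. Their summed level was 48.1 to 74.9 CPM in RXRgKO-labelled T3, 70.0 to 77.2 CPM in RXRgKO-labelled untreated, 109.9 to 213.9 CPM in WT-labelled T3 and 130.5 to 144.7 CPM in WT-labelled untreated libraries, and 5 of the 9 were at 1 CPM or more in WT-labelled T3 libraries.

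For Lpo, 12 other genes of heme peroxidases and their partners were tested and none passed edgeR's test for T3, with medians of -0.03 under the RXRgKO label and 0.23 under the WT label. At an unadjusted p under 0.05, Ptgs2 was higher under the RXRgKO label and Cat and Gpx1 under the WT label, and DESeq2 called the same 3 higher. The close relatives Mpo and Epx were nearly absent. Mpo, the myeloperoxidase gene of granulocytes, had group means of 0.153 to 0.352 CPM, and Epx, the eosinophil peroxidase gene, 0.0839 to 0.272 CPM. Of 6 granulocyte markers, Elane, Camp, Ltf and Mpo were under 1 CPM in every library, and S100a8 and S100a9 were not. The 6 summed to 0.156 to 2.53 CPM in RXRgKO-labelled T3 and 0.462 to 7.12 CPM in RXRgKO-labelled untreated libraries. They summed to 0.0948 to 0.811 CPM in WT-labelled T3 and 0.244 to 0.716 CPM in WT-labelled untreated libraries. In RXRgKO-labelled untreated libraries 2 of the 6 averaged 1 CPM or more. Markers of secretory epithelium, where Lpo is normally made, summed to 1.12 to 5.68 CPM in RXRgKO-labelled T3, 1.89 to 5.28 CPM in RXRgKO-labelled untreated, 0.866 to 1.49 CPM in WT-labelled T3 and 1.05 to 2.36 CPM in WT-labelled untreated libraries. Of these 9 markers, Krt8, Krt5, Bpifa1, Scgb1a1 and Ltf were under 1 CPM in every library.

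For Col20a1, 8 other FACIT and related collagen genes were tested, and some did rise with T3. Under the RXRgKO label 1 of the 8 rose, against 2.01% of all tested genes, and under the WT label 3 did, against 4.96%, and none fell. Col16a1 rose under both. It averaged 403.9 ± 179.5 CPM in RXRgKO-labelled T3 and 86.1 ± 5.14 CPM in RXRgKO-labelled untreated libraries (log2 change 2.23, edgeR adjusted p = 0.000248), and 550.8 ± 163.5 CPM in WT-labelled T3 and 100.1 ± 24.8 CPM in WT-labelled untreated libraries (log2 change 2.46, edgeR adjusted p = 5.06e-05). Under the WT label, Col9a3 rose by 0.78 (edgeR adjusted p = 0.00194) and Col12a1 by 0.69 (edgeR adjusted p = 0.0362) on the log2 scale. The median change of the 8 was -0.04 under the RXRgKO label and -0.08 under the WT label, so the rises were those of single genes. Between labels with T3, 3 of the 8 were higher under the RXRgKO label (Col9a1, Col14a1 and Col22a1; 8.1% of all tested genes) and 1 was lower (Col9a3, by -1.45, edgeR adjusted p = 3.33e-06; 6.8% of all tested genes).

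For Trh, 17 other genes of prohormone processing, TRH receptors and TRH breakdown were tested, and edgeR called none higher with T3, while at an unadjusted p under 0.05 and by DESeq2 1 was higher, Scg2 under the RXRgKO label. Pcsk2, a convertase that cuts the TRH precursor, was the 1 gene of the 17 that fell, under both labels. Of all 19764 tested genes, 157 fell under the RXRgKO label and 688 under the WT label. Values of Pcsk2 are given next. It averaged 10.7 ± 1.21 CPM in RXRgKO-labelled T3 and 19.4 ± 3.29 CPM in RXRgKO-labelled untreated libraries (log2 change -0.86, edgeR adjusted p = 0.00597), and 5.02 ± 0.424 CPM in WT-labelled T3 and 10.2 ± 2.04 CPM in WT-labelled untreated libraries (log2 change -1.03, edgeR adjusted p = 0.000822). Trhr, a TRH receptor gene, averaged 2.56 ± 0.628 CPM in RXRgKO-labelled T3, 2.45 ± 0.275 CPM in RXRgKO-labelled untreated, 2.18 ± 0.828 CPM in WT-labelled T3 and 1.43 ± 0.450 CPM in WT-labelled untreated libraries. With T3, 4 of the 17 were higher under the RXRgKO label and none lower, against 8.1% of all tested genes higher and 6.8% lower. They were Pcsk2 (1.09, adjusted p = 0.000237), Pam, the amidating enzyme (0.89, adjusted p = 0.000151), Trhde, which degrades TRH (1.16, adjusted p = 0.0227), and Scg2, a granule protein gene (1.18, adjusted p = 0.000123), by edgeR. Of 6 markers of hypothalamic neuroendocrine neurons, Sim1, Otp, Crh, Avp and Oxt were under 1 CPM in every library, and the 6 summed to 1.67 to 2.84 CPM in RXRgKO-labelled T3, 1.46 to 3.19 CPM in RXRgKO-labelled untreated, 1.42 to 2.64 CPM in WT-labelled T3 and 2.11 to 2.83 CPM in WT-labelled untreated libraries.

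Of 8 established T3 targets, 6 rose under each label, Hr, Klf9, Dio3, Dbp, Stat5a and Gbp3. Among all tested genes 2.01% rose under the RXRgKO label and 4.96% under the WT label. The median over the 8 was 2.10 under the RXRgKO label and 2.01 under the WT label, against -0.002 and -0.032 over all tested genes. Hr, a co-repressor that binds thyroid hormone receptors, had a log2 change of 3.21 (SE 0.322, edgeR adjusted p = 1.86e-05) under the RXRgKO label and 2.51 (SE 0.311, edgeR adjusted p = 8.29e-05) under the WT label. The largest of the 6 under the WT label was Gbp3 at 4.08 (SE 0.276, edgeR adjusted p = 2.61e-07), and under the RXRgKO label it was Dio3 at 4.00 (SE 0.369, edgeR adjusted p = 9e-06). Thrsp and Nrgn did not pass under either label. With T3, Dio3 was the only one of the 8 that edgeR called between labels, higher under the RXRgKO label by 1.81 (edgeR adjusted p = 0.000814). Among all tested genes 8.1% were higher and 6.8% lower in this comparison. DESeq2 called Dio3 higher and Hr lower, and over all tested genes it called 1873 higher and 1813 lower. Dio3 did not stand for the list, whose median log2 difference between labels with T3 was -0.46, against 0.025 over all tested genes.

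The genes next to the 5 on the chromosome were followed as well. The 5 nearest protein-coding genes on each side gave 46 neighbours, since Rpe65 lies near the chromosome end and has only 6, and 34 of them were tested. Under the RXRgKO label none passed edgeR's test for T3 in either direction, against 2.81% of all tested genes. At an unadjusted p under 0.05 there were 8, with no share of all tested genes computed for that rule. DESeq2 called 2 higher, Sh3glb1 and Arfgap1, and 804 of all 19764 tested genes. Under the WT label 2 rose and 2 fell, against 8.44% of all tested genes, and the median log2 change over the 34 was 0.07 under either label. Around Col20a1, Nkain4 rose by 1.24 (SE 0.242, edgeR adjusted p = 0.00379) and Ppdpf by 0.60 (SE 0.137, edgeR adjusted p = 0.0105), and Eef1a2 had a log2 change of -1.03 (SE 0.174, edgeR adjusted p = 0.00126). Near Trh, Fgd5 had a log2 change of -1.45 (SE 0.299, edgeR adjusted p = 0.00539). Chrna4, a nicotinic receptor gene whose annotated span lies 17 bases from that of Col20a1, averaged 24.4 ± 9.14 CPM in RXRgKO-labelled T3, 14.1 ± 4.09 CPM in RXRgKO-labelled untreated, 24.1 ± 10.0 CPM in WT-labelled T3 and 18.0 ± 4.26 CPM in WT-labelled untreated libraries and did not pass edgeR's test. Arfgap1, on the other side of Col20a1, did not pass edgeR's test either (log2 changes 0.51 and 0.44 under the RXRgKO and WT labels). The 4 CLCA genes that follow Clca3a1, namely Clca3a2, Clca3b, Clca4b and Clca4a, were all at 0.245 CPM or less in group mean. On the other side of Clca3a1, Sh3glb1, 9342 bases away, averaged 353.9 ± 96.1 CPM in RXRgKO-labelled T3, 226.3 ± 27.9 CPM in RXRgKO-labelled untreated, 561.3 ± 109.4 CPM in WT-labelled T3 and 408.6 ± 101.9 CPM in WT-labelled untreated libraries (edgeR adjusted p = 0.12 and 0.208 for T3). Beside Lpo, Mpo lies 2015 bases away, at the low level given above, and Mks1 on the other side had log2 changes of 0.28 and 0.37 under the RXRgKO and WT labels (edgeR adjusted p = 0.24 and 0.0563). Under the WT label DESeq2 called 5 neighbours higher, Arfgap1, Mks1, Hs2st1, Nkain4 and Ppdpf, and 2 lower, Eef1a2 and Fgd5. Over all tested genes it called 1517 higher and 903 lower. Depdc1a and Wls beside Rpe65 and Rbsn and Prickle2 beside Trh had changes between -0.42 and 0.08, and none passed edgeR's test.

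**Figure D5:**
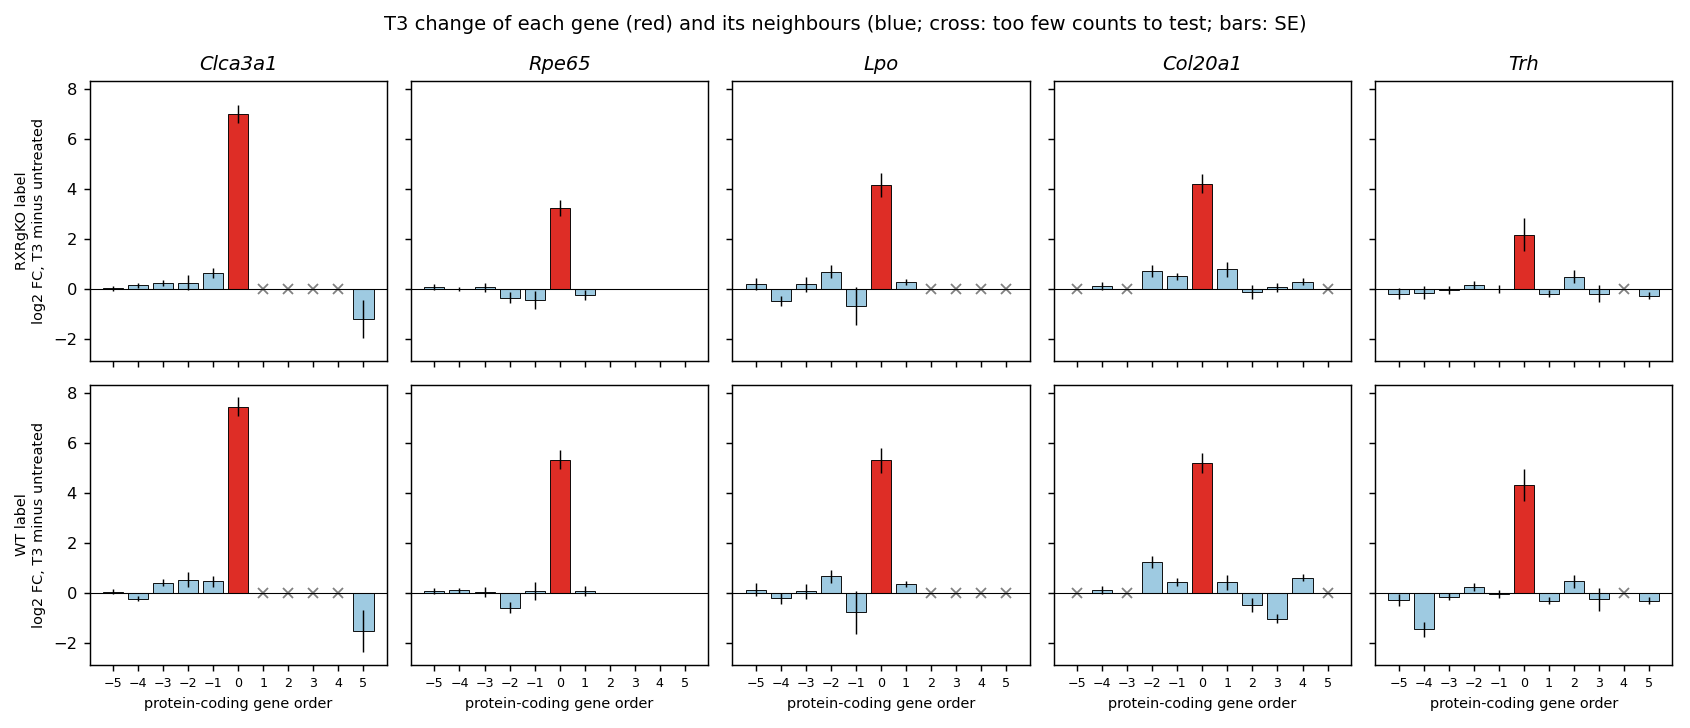
Log2 change with T3 (T3 minus untreated; bars are standard errors) of each of the 5 genes (red, position 0) and of its protein-coding neighbours in order along the chromosome (blue), under the RXRgKO label above and the WT label below. Crosses mark genes with too few counts to test, and Rpe65 has 1 neighbour on its right because of the chromosome end. The neighbours lie between -1.53 and 1.24, below the change of the gene at position 0 in all 10 panels.

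The protein-coding genes most like each member over the 16 libraries, by Pearson's r of log2 CPM among 15315 such genes, were more highly expressed genes for the most part. For Clca3a1 they were Sorl1 (r = 0.980), Itga7 (r = 0.976) and Lpo (r = 0.976), and for Lpo they were Sbno2 (r = 0.985), Itga7 (r = 0.984) and Slc14a1 (r = 0.981). For Rpe65 they were Prokr1 (r = 0.987), Rhob (r = 0.979) and Gbp3 (r = 0.977). For Col20a1 they were Angptl2 (r = 0.987), Col16a1 (r = 0.983) and Rab7b (r = 0.979), and for Trh they were Cldn19 (r = 0.952), Acer3 (r = 0.930) and Higd1a (r = 0.928). The step between untreated and T3 libraries enters all of these values, its share in them was not computed, and they are a description. The sizes of change of these genes differ from that of the member. Cldn19, a tight junction gene, averaged 7.08 ± 0.766 CPM in RXRgKO-labelled T3 and 5.00 ± 0.953 CPM in RXRgKO-labelled untreated libraries, and 14.2 ± 3.69 CPM in WT-labelled T3 and 5.09 ± 2.42 CPM in WT-labelled untreated libraries. The log2 change of Cldn19 with T3 was 0.51 (edgeR adjusted p = 0.448) under the RXRgKO label and 1.48 (edgeR adjusted p = 0.00674) under the WT label. Its log2 difference between labels with T3 (RXRgKO minus WT) was -1.001 (edgeR adjusted p = 0.0367). Prokr1, which encodes a prokineticin receptor, averaged 15.2 ± 2.29 CPM in RXRgKO-labelled T3 and 3.50 ± 1.63 CPM in RXRgKO-labelled untreated libraries, and 22.7 ± 2.28 CPM in WT-labelled T3 and 2.03 ± 0.394 CPM in WT-labelled untreated libraries. By Spearman's rank correlation, 1 of the 3 genes was again among the 3 most like Clca3a1 and Rpe65, 2 of those most like Lpo, and none of those most like Col20a1 and Trh.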

How the data were processed

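The deposited files hold raw counts per Ensembl gene, which the authors did not normalise. The submitters' processing notes name HTSeq 0.6.1p1, STAR 2.5.3a, bcl2fastq 2.17.1.14 and the mm10 build; neither the strand setting of the counting nor the annotation release is given in the sources used here. The 5 HTSeq summary lines were left out of library sizes and tests; genes took 22.39% to 46.75% of the reads listed, 39.65% to 55.01% mapped to several sites and 11.55% to 23.54% to no annotated gene, so genes with close copies lose reads. GENCODE M21 (GRCm38) gave positions and symbols for 55154 of 55335 identifiers.

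All 16 libraries entered a single edgeR 4.0.16 quasi-likelihood fit (R 4.3.3; TMM, robust dispersions, filterByExpr by group, a mean per group), with Benjamini-Hochberg adjustment over 19764 genes and calls at an adjusted p under 0.05. Standard errors were taken as the absolute log2 change over the root of F, and a prior count of 2 was used for log2 CPM. The fit was tested on simulated data with known changes. For T3 and between labels it found 83.3% to 87.9% of 4-fold changes and 44.8% to 50.7% of 2-fold changes. For the response difference it found 74.2% and 16.4%, and 0% of 1.5-fold changes. Simulated libraries were drawn independently, without the sets of like libraries seen here, so the simulation does not give the error rate for these data. DESeq2 1.42.0, DESeq2 size factors, other count filters, fewer groups in the fit, a replicate block and omitted libraries were tried. No libraries were paired in the main fit, and the replicate block was an alternative only. Deviations of same-number libraries for T3 under the WT label had correlations of 0.648, 0.247, 0.211 and 0.164. Unlike numbers among replicates 2 to 4 gave 0.15 to 0.269, so only replicate 1 stood apart and the others were not shown to be pairs. Under the RXRgKO label same-number correlations were 0.543, -0.629, -0.697 and 0.600, so those are not pairs. Between libraries of a group that fell in different sets, the chi-square per gene was 4.79 to 7.64. Within sets of like libraries it was 1.48 to 2.08, above sampling noise, so no library was taken for another deposited again. This does not show separate cultures.

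The 5 genes, the gene lists, the marker lists and the alternatives were chosen with earlier results of these data known. Named besides the 5 were Rxrg, Xist and Gfap as checks, genes of each list that passed or had the smallest adjusted p (a few relatives were added after their values were seen), neighbours that passed or lay nearest, the 3 genes most like each member and the 5 largest low-baseline rises per label.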

Additional observations from a re-analysis of the deposited data

Results flagged for a closer look

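In 20 groups of 4 libraries, 1 for each gene and group, a single library lay far from the other 3 in 2 cases, and chance alone gives about 1 such case in 20. Clca3a1 stood at 173.2 CPM in WT-labelled T3 replicate 1, against 90.5 to 103.3 CPM in replicates 2 to 4, a gap of 0.845 of the whole range of the group. Col20a1 stood at 20.6 CPM in WT-labelled untreated replicate 1, against 8.92 to 9.64 CPM in replicates 2 to 4, a gap of 0.938 of the range. Both are replicate 1 under the WT label, the libraries with more Gfap; the part of Gfap-expressing cells in these values was not tested.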

How the results depend on the processing

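Of 630 values of the 5 genes under alternatives, 610 kept their direction and their side of the threshold, or moved by less than their spread. Rpe65 and Col20a1 were lower under the RXRgKO label with T3 in all 25 alternatives (adjusted p 0.00181 to 0.0447 and 2.43e-06 to 0.0131), and Trh in 24 (1.96e-05 to 0.0518). Some alternatives omit a library outside the groups compared, which can hardly move the log2 value. These counts therefore overstate the number of separate checks. None of the alternatives left out WT-labelled replicates 2 to 4 together, and the Trh difference rests on those libraries. Reversals were small values that passed no test. Trh untreated between labels was 0.019 with the replicate block on all 16 libraries, 0.288 without WT-labelled replicate 4, 0.113 and 0.202 without RXRgKO-labelled replicates 2 and 4, and 0.603 without the RXRgKO-labelled libraries with Xist (-0.631 to 0.288 over single omissions). Clca3a1 untreated was 0.206 without WT-labelled replicate 1, 0.191 without it and WT-labelled T3 replicate 1, and 0.066 without the libraries with Xist (-0.298 to 0.206). Lpo with T3 was 0.138 without WT-labelled replicate 1, 0.140 without it and WT-labelled untreated replicate 1, and 0.031 without the RXRgKO-labelled libraries lacking Xist, when the response difference of Clca3a1 was 0.118 (Lpo -0.541 to 0.138 over single omissions).

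Counts of genes that passed moved more, and the cause was not tested. For T3 under the WT label, 1668 became 5280 with the replicate block in the label's 8 libraries alone (1541 in those 8 without a block, 1537 with the block on all 16), 2729 without WT-labelled replicate 1 of both groups, and 2780 and 2622 without the RXRgKO-labelled libraries lacking or having Xist (1032 to 2542 over single omissions). For T3 under the RXRgKO label, 555 became 1194 by DESeq2, 141 with the block in the label's 8 libraries alone (448 in those 8 without a block), 1592 without replicate 1 of both WT-labelled groups, and 121 without the libraries with Xist (265 to 809). For the response difference, 13 became 20 with a filter of 1 CPM in 4 libraries, 4 with the block, 105 by DESeq2, 146 without replicate 1 of both WT-labelled groups, and 26 and 25 without the sets lacking or having Xist (3 to 61). Between labels, 2240 untreated and 2943 with T3 became 3968 and 5393 without the libraries with Xist (1712 to 2539 and 2220 to 3345). Low-baseline rises, 20 and 55 under the RXRgKO and WT labels, became 47 and 131 with a baseline under 2 CPM, 9 under the RXRgKO label without the libraries with Xist (13 to 22 and 45 to 61). The block changed no call of the 5 genes between labels. For the response difference, a fit of only the groups compared is the same fit. The untreated levels of Rpe65, Lpo and Trh rest on 0 to 20 reads a library, which limits the precision of every change measured against them.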
